A study of Mus musculus with 24 samples.

Results

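The knockout of the transcription factor C/EBPα in fat was examined in subcutaneous adipose tissue of mice after 3 days on a high fat diet, in 3 knockout and 3 control arrays chosen by their sample titles out of 24 arrays. The knockouts, titled Adn-C/EBPα-/-, and their control littermates were C57BL/6J mice of 10 weeks, and both groups received doxycycline in the high fat diet. The other 18 arrays held the same knockout and its controls after 3 days on doxycycline chow, again at 10 weeks, or after 1 month on the doxycycline high fat diet, at 14 weeks, and Adn-PPARγ-/- mice with their controls on doxycycline chow for 3 days. All 24 arrays were Illumina BeadChips, which report for each probe how brightly labelled cRNA bound to it. The genotype field gives the knockout for control arrays too, so it was not used. The labels do not spell out the transgenes; lines named in this way generally combine an adiponectin promoter, active in adipocytes, with doxycycline-dependent Cre, so that controls receive the drug as well. Nothing in the labels says whether the 3 arrays of a group came from 3 different mice. The p-values therefore cover only the spread among arrays within groups, pooled over the 24 arrays, part or all of which may be technical.

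C/EBPα is a leucine zipper protein that pairs with other C/EBP proteins and switches on genes of the fat cell. During fat cell formation it and the nuclear receptor PPARγ raise each other's expression, and in the formed cell both remain bound near genes of lipid storage, hormone secretion and hormone response. The title of the series frames the comparison around formed fat cells, asking what the factor maintains there. The RNA was of whole tissue, so fewer adipocytes and less RNA per adipocyte cannot be told apart.

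Signals below are intensities after background correction, in arbitrary units of the authors' normalization. Changes are differences in log2(signal + 16), knockout minus control, ± the standard error from limma (3 arrays against 3). That error uses the spread within groups pooled over all 8 groups of the 24 arrays, not that of these 6 alone. The added 16 makes the change of a dim probe smaller than the log2 ratio of its signals. A gene was called at a Benjamini-Hochberg adjusted p under 0.05 over 15571 genes. Of 45281 probes, 53.3% were brighter than background in these 6 arrays, against 53.3% to 62.3% over the 4 sets of 6. Pearson's r across the genes tested, 1 probe each, was 0.991 to 0.995 between control arrays and 0.989 to 0.994 between knockout arrays. Between a control and a knockout array it was 0.984 to 0.993. In each group 1 array stood apart along the first principal component: control replicate 3, at -22.5, and knockout replicate 3, at 29.1, the other 4 lying between -7.11 and 4.87. The summed signal of 16 skeletal muscle genes was 37494 in control replicate 3 and 6122 to 15523 in the other 5 arrays, and that of 15 lymphocyte genes was 4961 in knockout replicate 3 and 2367 to 2826 in the others. Calls of named genes that rest on either array are followed by the result without it, as are several counts of called genes. An array left out is named by its group and replicate number. List medians, counts by sign, by unadjusted p or by separate groups, and overlaps with the other comparisons are given with both arrays only.

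Cebpa, the targeted gene, was lower in all 3 knockout arrays. Its probe ILMN_1247147 read 493, 682 and 515 in the controls and 113, 136 and 111 in the knockouts. The groups were far apart, and the knockout mean was 21.3% of the control mean. The change in log2(signal + 16) was -2.08 ± 0.14 (limma adjusted p = 2.22e-08). Without the 2 arrays that stood apart the change was -2.09. The same probe changed by -0.999 ± 0.14 after 3 days on chow and by -3.46 ± 0.14 after 1 month on the high fat diet. Each set of 6 arrays was normalized on its own, so signals are compared within a set only.

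**Figure D1:**
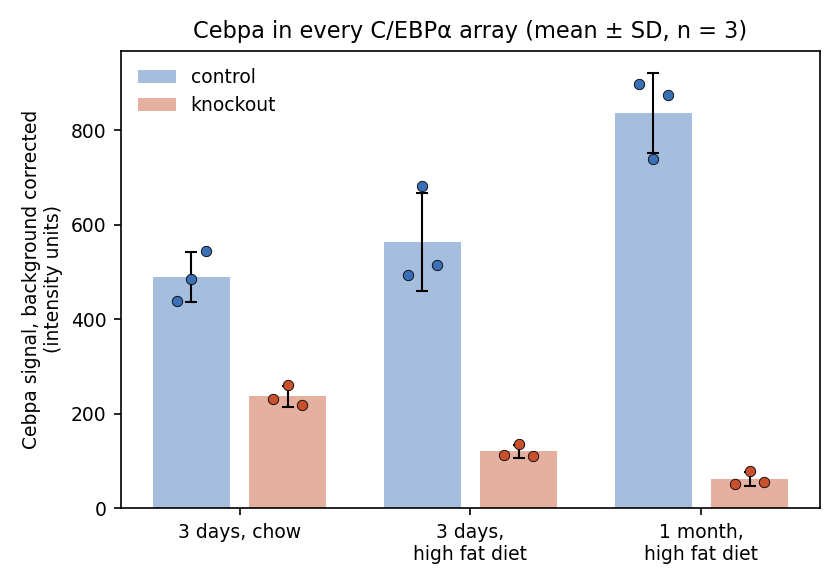
Background-corrected signal of the Cebpa probe in intensity units for the knockout and control arrays of each diet and time; points are arrays, bars are means and error bars are SDs of 3 arrays. Within each set the knockout arrays lie below the control arrays, and at 3 days on the high fat diet they lie at 113, 136 and 111 against 493, 682 and 515.

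Of the other C/EBP family members that were tested, Cebpg rose. Cebpg encodes C/EBPγ, a short partner that pairs with the other C/EBP proteins and lacks their activation domain. Its signal was 1929.8, 1549.7 and 2245 in controls and 4862, 5445 and 4405 in knockouts, a change of 1.37 ± 0.14 (adjusted p = 1.72e-05). No knockout array came near the control range. A second probe, ILMN_2972026, was also higher, by 0.66 ± 0.13, and another lay at background in all but 1 array. Cebpb and Cebpd, which act early in fat cell formation, were at 0.02 ± 0.12 and -0.06 ± 0.13, Ddit3 at 0.11 ± 0.09 and Cebpe at -0.24 ± 0.18, and none of these 4 was called. Cebpg is also a chromosomal neighbour of Cebpa. Of the 8 protein-coding genes on each side of Cebpa in the RefSeq order, 12 were tested and 3 were called, against 2.13% of all genes. Cebpg and Chst8 (0.84), a sulfotransferase, were higher, and Kctd15 (-0.72), which encodes a BTB domain protein, was lower. Chst8 and Kctd15 were chosen after their values were seen. The other 9 lay between -0.26 and 0.25. Chst8 lost its call without the 2 arrays that stood apart (adjusted p = 0.0773).

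Across all genes tested, 332 (2.13%) were called, 115 higher (0.739%) and 217 lower (1.39%). The median size was 0.55 among the higher and 0.63 among the lower genes. Changes of at least 2-fold in signal + 16 numbered 12 higher (0.0771%) and 34 lower (0.218%). The median change of all genes was 0.00. The 3 knockout arrays lay wholly to one side of the 3 control arrays for 2794 genes (17.9%), 1355 higher (8.7%) and 1439 lower (9.24%), and for 329 of the 332 called genes; the exceptions were Ctsl, Irf5 and Tgfb3. Leaving out 1 array moved the count of called genes from 332 to 184 without control replicate 3, 164 without knockout replicate 3, 204 without control replicate 2 and 213 without knockout replicate 1. Without the 2 arrays that stood apart 111 genes were called, 34 higher and 77 lower, and 104 of them were among the 332. The fit took the spread from all 24 arrays, and with the 6 compared arrays alone 76 genes were called, 12 higher and 64 lower, 73 of them among the 332. Of 103 named genes with a call, 65 lost it with the 6 arrays alone and 55 without the 2 arrays that stood apart, and those described below are named there. Ctsl, Irf5 and Tgfb3 lost their calls without the 2 arrays that stood apart (adjusted p = 0.110 to 0.568) and with the 6 compared arrays alone (adjusted p = 0.284 to 0.335).

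**Figure D2:**
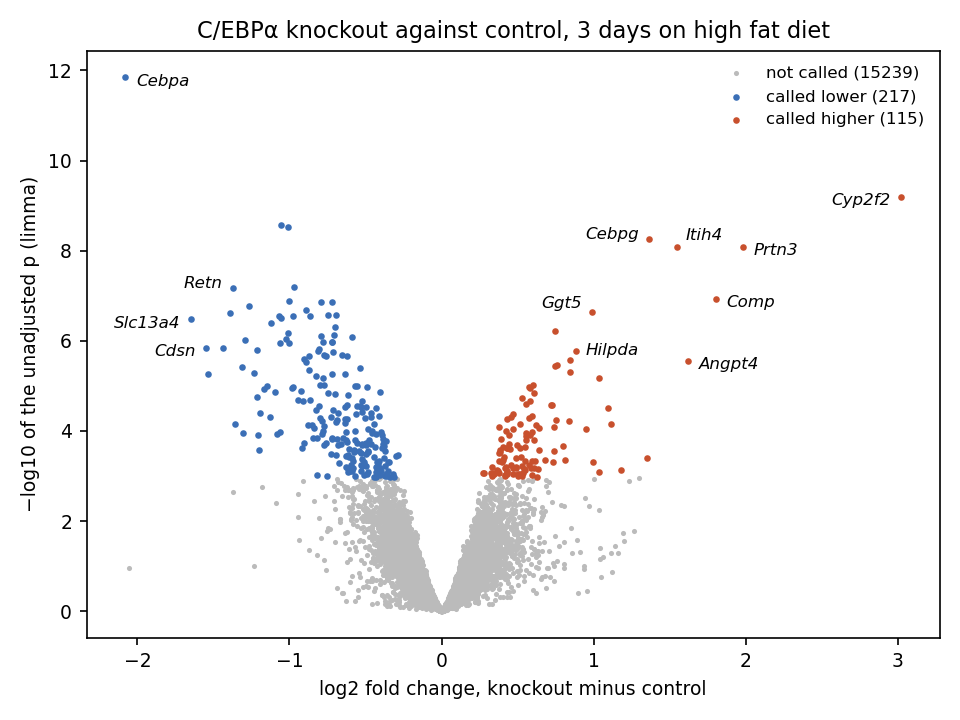
Each point is a gene: log2 change, knockout minus control, on the horizontal axis and −log10 of the unadjusted limma p on the vertical axis. The 217 genes called lower reach -2.08 at Cebpa, and the 115 called higher reach 3.02 at Cyp2f2.

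Secreted proteins of the fat cell were among the genes that fell furthest. Retn encodes resistin, a hormone released by mouse adipocytes. Its signal was 62.5, 71.5 and 59.5 in controls and 9.24, 26.2 and 11.99 in knockouts, 24.5% of the control mean. The change in log2(signal + 16) was -1.37 ± 0.17 (adjusted p = 0.000119), smaller than the ratio of the signals because the probe is dim. Every knockout array lay below every control. Hp encodes haptoglobin, which binds free haemoglobin. It read 15761, 19700.1 and 14689 in controls against 7593, 6142 and 6636 in knockouts (-1.29 ± 0.19, adjusted p = 0.000463), again with no overlap. Lcn2 encodes lipocalin 2, which binds bacterial siderophores. It read 146, 134 and 117 against 47.0, 49.1 and 46.9 (-1.22 ± 0.22, adjusted p = 0.00317), and its 3 knockout arrays were almost level. Orm1 and Orm2, orosomucoids that carry lipophilic molecules in plasma, changed by -1.004 ± 0.13 and -0.87 ± 0.14 on the log2 scale. The 2 paralogs are alike in sequence, so their probes may share target. The adiponectin gene Adipoq fell less, from 11359, 11674 and 8979 to 8652, 7811 and 7484 (-0.41 ± 0.10, adjusted p = 0.0295), and its call ended without control 1 or 2 or knockout 2 or 3, where the adjusted p reached 0.157. Leptin (Lep) was not called, at -0.11 ± 0.18. Orm2 and Adipoq lost their calls with the 6 compared arrays alone (adjusted p = 0.0992 to 0.260).

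In all, 6 of 29 tested adipokine genes fell (Retn, Hp, Lcn2, Orm1, Orm2 and Adipoq), against 1.39% of all genes, and the list's median was -0.14 against 0.00 for all genes. This list and those below were chosen with earlier results of these data known, and several share members. Their counts beside the share of all genes are therefore descriptions and not independent tests. The adipokine count was also 6 without the 2 arrays that stood apart. The 1 adipokine gene that rose was Igf1, which encodes insulin-like growth factor 1, at 0.40 ± 0.10 (adjusted p = 0.0289). Its call ended without control 2 or 3 or knockout 1 or 3, with an adjusted p up to 0.200. Hp, Lcn2, Orm1 and Orm2 are also acute phase genes. The inflammatory and acute phase list had 5 lower members of 34, against 1.39% of all genes, those and the chemokine gene Cxcl14 (-0.59 ± 0.15), with none higher (2 without knockout replicate 2) and a median of 0.08. The Cxcl14 call ended without control 1, 2 or 3 or knockout 1 or 3 (adjusted p up to 0.276). Tnf, Il6 and Ccl2, classical inflammatory genes, were at 0.16, 0.04 and 0.19 and were not called. Igf1 and Cxcl14 lost their calls without the 2 arrays that stood apart (adjusted p = 0.383 to 0.595) and with the 6 compared arrays alone (adjusted p = 0.202 to 0.269).

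Mup2 and Mup6, major urinary protein genes whose products carry small volatile molecules, fell by 1.36 ± 0.27 and 1.31 ± 0.21 on the log2 scale (adjusted p = 0.00826 and 0.00105). Signals of Mup2 were 3490.2, 3424 and 2133 in controls and 1072, 1229 and 1122 in knockouts. The groups did not overlap, though control replicate 3 was well below the other controls, and the Mup2 call ended without control 2 (adjusted p = 0.0512). Of 6 major urinary protein genes tested, 2 were called lower, against 1.39% of all genes, and the genes of this cluster are so similar that 1 probe may read several of them.

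Several of the genes that fell encode receptors for hormones and metabolites. Mc2r encodes the adrenocorticotropin receptor, and Mrap the accessory protein that carries it to the cell surface. Mc2r read 128, 158 and 113 in controls and 41.2, 52.5 and 17.9 in knockouts, a change of -1.54 ± 0.25 (adjusted p = 0.00135). All 3 knockout arrays lay far below the lowest control. Mrap fell less, from 3963, 4606 and 5039 to 2844, 3526 and 2736 (-0.58 ± 0.13, adjusted p = 0.0194), without overlap, and its call ended without control 2 or 3 or knockout 1 or 3 (adjusted p up to 0.126). Hcar2, the receptor through which ketone bodies and niacin restrain lipolysis, fell by 1.06 ± 0.14 (adjusted p = 0.000216). Npr3, which clears natriuretic peptides, changed by -1.201 ± 0.27 (adjusted p = 0.0194), with arrays at 1763, 2133 and 2364 in controls and 1045, 1369.6 and 493 in knockouts. Knockout replicate 3 was far below the others, and the call ended without control 2 or 3 or knockout 3 (adjusted p up to 0.131). Tshr, the thyrotropin receptor, changed by -1.19 ± 0.23 (adjusted p = 0.00562; 0.0533 without knockout 3), and Acvr1c, a receptor of the TGF-beta family known as ALK7, fell by 1.07 ± 0.14 (adjusted p = 0.000203). Mrap, Npr3 and Tshr lost their calls without the 2 arrays that stood apart (adjusted p = 0.0837 to 0.365). Mc2r, Mrap, Npr3 and Tshr lost their calls with the 6 compared arrays alone (adjusted p = 0.0596 to 0.221).

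Further receptors, chosen after their values were seen, were lower as well. Ffar4, a receptor for long-chain fatty acids, read 727, 583 and 497 in controls and 291, 299 and 292 in knockouts (-0.98 ± 0.13, adjusted p = 0.000203). The knockout arrays were level and wholly below the controls. The short-chain fatty acid receptor gene Ffar2 fell by 0.77 ± 0.17 (adjusted p = 0.0163), and its call ended without control 1 or 2 or knockout 3 (adjusted p up to 0.115). Ghr, the growth hormone receptor, fell from 4694, 5136 and 3590.5 to 2437, 2623 and 2213 (-0.87 ± 0.12, adjusted p = 0.000203), also without overlap. Klb, the co-receptor for FGF21, fell by 0.94 ± 0.17, and the adiponectin receptor gene Adipor2 fell by 0.40 ± 0.08. The Adipor2 call ended without control 3 or knockout 3 (adjusted p up to 0.0543). Among the genes that couple such receptors, Gnb5, a G protein beta subunit, read 344, 414 and 346 in controls and 177, 168 and 160.2 in knockouts (-1.05 ± 0.11). Its adjusted p of 1.14e-05, equal to that of Tmem120a, was the lowest after those of Cebpa and Cyp2f2. Gnai1, an inhibitory alpha subunit, fell by 0.80 ± 0.15. Klb, Adipor2 and Gnai1 lost their calls without the 2 arrays that stood apart (adjusted p = 0.0793 to 0.152). Ffar2, Ghr, Adipor2 and Gnai1 lost their calls with the 6 compared arrays alone (adjusted p = 0.0625 to 0.139).

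The remaining large decreases included transporters and enzymes. Slc13a4, a sodium-dependent sulphate transporter, fell from 218, 269 and 193 to 51.1, 91.9 and 46.2 (-1.65 ± 0.22, adjusted p = 0.000217). Its arrays did not overlap, and it had the largest decrease of the genes called after Cebpa. Chst1, a sulphotransferase that acts on carbohydrates, fell by 1.27 ± 0.16, and Vnn3, a vanin of the pantetheinase family, by 1.44 ± 0.22. Nnmt, which methylates nicotinamide, read 6085, 6733 and 4884 in controls and 2607, 3509.8 and 1652 in knockouts (-1.24 ± 0.20, adjusted p = 0.00133). Knockout replicate 3 was the lowest array, and 2 further Nnmt probes changed by -1.30 ± 0.21 and -1.12 ± 0.17. Cdsn, the corneodesmosin of cell junctions in the outer skin, fell from 1693, 1889 and 1931 to 611, 955 and 400.2 (-1.55 ± 0.23, adjusted p = 0.000563). The 14 tested epithelial and mammary markers had no called member (0 at an unadjusted p under 0.05) and a median of 0.01. Tex36 (-1.39), Wfdc12 (-1.22), which encodes a small protein with a protease inhibitor fold, and Fam110c (-1.31) completed the 15 largest decreases, and the Fam110c call ended without control 2 or 3 or knockout 3 (adjusted p up to 0.0938). Of enzymes and regulators chosen after their values were seen, Cdo1, the cysteine dioxygenase, fell from 6377, 6616 and 6238 to 3251, 3292 and 3244 (-0.97 ± 0.12). Both groups were narrow and far apart. Tmem120a, a membrane protein found at the nuclear envelope, fell by 1.01 ± 0.10 (adjusted p = 1.14e-05), and Eif4ebp1, a repressor of cap-dependent translation, by 0.80 ± 0.10. Fam110c lost its call without the 2 arrays that stood apart (adjusted p = 0.266). Nnmt, Cdsn and Fam110c lost their calls with the 6 compared arrays alone (adjusted p = 0.0712 to 0.116).

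**Figure D3:**
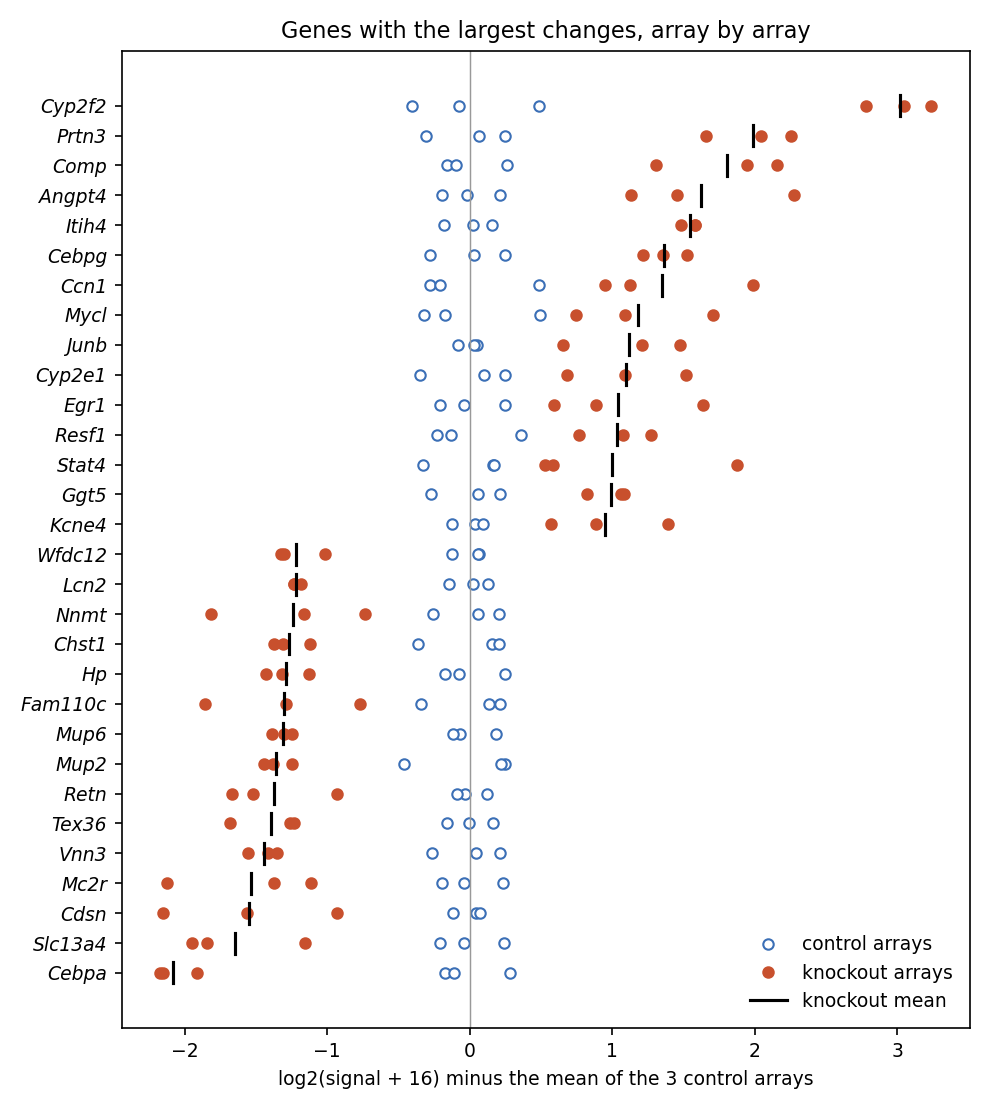
The 15 largest changes in each direction among called genes with fully separated groups; the horizontal axis gives each array's log2(signal + 16) minus the mean of the 3 control arrays, open circles are controls, filled circles are knockouts and bars are knockout means. Knockout means run from -2.08 (Cebpa) to 3.02 (Cyp2f2), and knockout arrays spread most for Stat4 and Angpt4 among the higher genes and for Cdsn and Fam110c among the lower ones.

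Fewer genes rose strongly, and the largest increase was that of a cytochrome P450. Cyp2f2, which oxidises small aromatic compounds, read 632, 334 and 424 in controls and 3809, 3172 and 4358 in knockouts. Every knockout array was several times the highest control, and the change was 3.02 ± 0.28 (adjusted p = 4.96e-06). A second P450, Cyp2e1, which metabolises ethanol, rose from 4862, 5394 and 3553 to 9677, 7277 and 12998 (1.10 ± 0.21, adjusted p = 0.00454), without overlap. Prtn3, proteinase 3 of neutrophil granules, rose from 284, 249 and 189 to 1026, 783 and 1194 (1.98 ± 0.21, adjusted p = 1.81e-05). The genes of other granule proteins Elane, Ctsg and Mpo were at 0.11, -0.07 and -0.08 and were not called, and the summed signal of 14 neutrophil genes, Prtn3 included, ran from 724 to 1864 in controls and from 1278 to 1842 in knockouts. Itih4, an inter-alpha-trypsin inhibitor heavy chain found in plasma, rose from 63.6, 75.5 and 84.4 to 253, 236 and 253 (1.55 ± 0.17, adjusted p = 1.81e-05), with tight and separate groups. Cyp2e1 lost its call without the 2 arrays that stood apart (adjusted p = 0.198) and with the 6 compared arrays alone (adjusted p = 0.117).

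Angpt4 encodes an angiopoietin, a ligand of the endothelial receptor TIE2. It read 14.0, 6.69 and 9.60 in controls, just above background, and 55.1, 109.4 and 40.8 in knockouts (1.62 ± 0.25, adjusted p = 0.000830). Knockout replicate 2 was the highest array, and all 3 were above the controls. Comp, a cartilage matrix protein also made by stromal cells, rose by 1.80 ± 0.23 at its chosen probe (adjusted p = 0.000164), but a second probe of like brightness was at 0.16 ± 0.21, so the probes disagree. Ggt5, which cleaves leukotriene C4, rose by 0.99 ± 0.13, and Kcne4, a potassium channel subunit, by 0.95 ± 0.20. The Kcne4 call ended without control 3 (adjusted p = 0.0568). Resf1, a silencer of retroelements, rose by 1.04 ± 0.17, and Stat4, a transcription factor of lymphocytes, by 1.00 ± 0.24. Stat4 read 42.1, 39.9 and 126 in the knockouts against 27.3, 27.5 and 14.8 in controls. Its highest array was knockout replicate 3, which also had the highest lymphocyte markers, and the call ended without control 1, 2 or 3 or knockout 3, with an adjusted p up to 0.184. Hilpda, an inhibitor of the lipase ATGL on lipid droplets, and Fkbp5, a co-chaperone of the glucocorticoid receptor, were chosen after their values were seen and rose by 0.88 ± 0.13 and 0.81 ± 0.19; the Fkbp5 call ended without control 1 or 3 or knockout 2 or 3 (adjusted p up to 0.136). Resf1, Stat4 and Fkbp5 lost their calls without the 2 arrays that stood apart (adjusted p = 0.0588 to 0.434). Angpt4, Kcne4, Resf1, Stat4 and Fkbp5 lost their calls with the 6 compared arrays alone (adjusted p = 0.0627 to 0.329).

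Immediate early genes, which respond to stimuli within minutes, were represented by 4 called members of 23, all higher, against 0.739% of all genes, with a median of 0.28. Junb, an AP-1 subunit, read 188, 208 and 205 in controls and 483, 325 and 586 in knockouts (1.11 ± 0.22, adjusted p = 0.00826). The controls were level and the knockouts spread widely. Egr1, a zinc finger transcription factor, rose by 1.04 ± 0.26, Ccn1, a matricellular protein, by 1.35 ± 0.32, and Zfp36, which destabilises mRNA, by 0.53 ± 0.14. Fos was at 1.27 ± 0.49 with separate groups and was not called (adjusted p = 0.239). These calls depended on single arrays. Junb was lost without knockout 3 (adjusted p = 0.0716), Egr1 without control 1, 2 or 3 or knockout 1 or 3 (up to 0.276), Ccn1 without control 1 or 2 or knockout 2 (up to 0.120) and Zfp36 when any 1 of the 6 arrays was left out (up to 0.263). The count was 1 or 2 in each of these runs, and 1 without the 2 arrays that stood apart. Mycl, a MYC family gene outside this list, rose by 1.18 ± 0.30 and was lost without control 2 or 3 or knockout 2 or 3 (adjusted p up to 0.171). Junb, Egr1, Zfp36 and Mycl lost their calls without the 2 arrays that stood apart (adjusted p = 0.154 to 0.468). Junb, Egr1, Ccn1, Zfp36 and Mycl lost their calls with the 6 compared arrays alone (adjusted p = 0.0711 to 0.172).

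Among lists of adipocyte function, the textbook targets of C/EBPα had the most called members for their size: 7 of 16 fell, counting Cebpa itself, against 1.39% of all genes, and none rose, with a median of -0.40. The others were Retn, Hp, Orm1, Cd36, Pparg and Adipoq. Cebpa is the targeted gene, so its own decrease is no result about targets, though it enters the count and the median. The count was 5 without the 2 arrays that stood apart and 4 without control replicate 1, control replicate 2 or knockout replicate 3. Fabp4, Slc2a4 and Scd1, members not called, were at -0.14, -0.14 and -0.07. The Fabp4 and Cd36 probes were dim, with control means of 27.0 and 24.4, and Cd36 fell from 28.2, 25.1 and 19.9 to 16.6, 12.3 and 7.60 (-0.53 ± 0.13, adjusted p = 0.0350; lost without control 1 or 2 or knockout 2 or 3, up to 0.217). The list shares Hp, Orm1, Cd36 and Adipoq with the textbook PPARγ targets, of which 6 of 19 fell against 1.39% of all genes, the others being Dgat1 and Pex11a, with a median of -0.24. That count was 4 without the 2 arrays that stood apart, and 4 without control replicate 1 or 2 or knockout replicate 2 or 3. Cd36 and Pex11a lost their calls without the 2 arrays that stood apart (adjusted p = 0.176 to 0.186) and with the 6 compared arrays alone (adjusted p = 0.0992 to 0.198).

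Of 30 adipogenic transcription factors tested, Pparg was the 1 called, against a background of 2.13%. Its chosen probe, ILMN_1221060, read 5471, 5278 and 6412 in controls and 4026, 5157 and 3606 in knockouts (-0.43 ± 0.11, adjusted p = 0.0483). The groups came close, with knockout replicate 2 just under control replicate 2, and the call ended without control 1, 2 or 3 or knockout 1 or 3 (adjusted p up to 0.290). A dimmer probe, ILMN_1221893, fell by 1.18 ± 0.15 on the log2 scale and another, ILMN_1221594, was at -0.34 ± 0.18, so the size of the change depends on the probe. Srebf1, Mlxipl and Ppargc1a, regulators of lipid synthesis and of mitochondria, were at -0.15, -0.53 and -0.39 and were not called. Pparg lost its call without the 2 arrays that stood apart (adjusted p = 0.639) and with the 6 compared arrays alone (adjusted p = 0.318).

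The lists for lipid storage and synthesis held lower calls and no higher ones. In the lipolysis and lipid droplet list 6 of 31 fell (Npr3, Hcar2, Abhd5, Cav2, Cd36 and Bscl2), against 1.39% of all genes, and none rose, with a median of -0.23; 17 members had separate groups on the lower side, against 9.24% of all genes. Abhd5, the co-activator of the lipase ATGL, read 799, 999 and 979 in controls and 635, 546 and 495 in knockouts (-0.71 ± 0.14, adjusted p = 0.00510). Bscl2, which encodes seipin, a protein of lipid droplet assembly, fell by 0.43 ± 0.08 (adjusted p = 0.00458). The caveolin gene Cav2 fell by 0.61 ± 0.14 and was lost without control 2 or 3 or knockout 1 or 3 (adjusted p up to 0.156). The lipases themselves, Pnpla2 and Lipe, were at -0.07 ± 0.09 and 0.04 ± 0.11 and were not called. The list's count was 3 without control replicate 2 or knockout replicate 3 and 4 without control replicate 3. It was 7 when knockout replicate 2 was left out and was 1 without the 2 arrays that stood apart. Abhd5, Cav2 and Bscl2 lost their calls without the 2 arrays that stood apart (adjusted p = 0.0557 to 0.365) and with the 6 compared arrays alone (adjusted p = 0.0778 to 0.139).

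For fatty acid and triglyceride synthesis 4 of 31 fell (Pnpla3, Dgat1, Acss2 and Dgat2), against 1.39% of all genes, and none rose. A negative change was found for 27, against 48.7% of all genes, with a median of -0.26. Dgat1, which makes triglyceride from diglyceride, read 626, 649.7 and 638 in controls and 386, 376 and 378 in knockouts (-0.72 ± 0.12, adjusted p = 0.00135). Both groups were tight and far apart. Pnpla3, Acss2 and Dgat2 fell by 0.92 ± 0.21, 0.69 ± 0.15 and 0.43 ± 0.11, and each call ended without control replicate 3 and without knockout replicate 1 or 3, and those of Pnpla3 and Dgat2 also without control replicate 2, with adjusted p up to 0.142, 0.108 and 0.177. Fasn, the fatty acid synthase, was at -0.91 ± 0.25 with separate groups and missed the threshold (adjusted p = 0.0572). Gpat3, an acyltransferase of the same pathway that is not in the list and was chosen after its values were seen, fell from 530.3, 539 and 457 to 234, 263 and 234 (-1.01 ± 0.14, adjusted p = 0.000382). The list's count was 1 without control replicate 3, knockout replicate 1 or knockout replicate 3, 8 without knockout replicate 2, and 1 without the 2 arrays that stood apart. Pnpla3, Acss2 and Dgat2 lost their calls without the 2 arrays that stood apart (adjusted p = 0.248 to 0.420) and with the 6 compared arrays alone (adjusted p = 0.0832 to 0.210).

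Cholesterol synthesis had 3 called members of 20, all lower (Pmvk -0.78, Nsdhl -0.61 and Msmo1 -0.51), against 1.39% of all genes, and 18 members with a negative change (48.7% of all genes), with a median of -0.40. At an unadjusted p under 0.05, 12 were lower, against 6.57% of all genes. The list's summed signal was 6314 to 8958 in controls, highest in replicate 3, and 5295 to 6118 in knockouts. The number of called members was 1 without control replicate 2, control replicate 3, knockout replicate 1 or knockout replicate 3, 7 without control replicate 1, and 0 without the 2 arrays that stood apart. Of the 3, Pmvk, the phosphomevalonate kinase, kept its call in each of the 6 runs that left out 1 array, and Nsdhl and Msmo1 did not (adjusted p up to 0.251 and 0.214). Pmvk, Nsdhl and Msmo1 lost their calls without the 2 arrays that stood apart (adjusted p = 0.0782 to 0.606). Nsdhl and Msmo1 lost their calls with the 6 compared arrays alone (adjusted p = 0.202 to 0.243).

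Insulin signalling and glucose use had 2 lower members of 38, Gys2, the liver-type glycogen synthase (-0.85 ± 0.18), and Akt2, the kinase through which insulin acts in fat (-0.64 ± 0.13), and 1 higher, Rhoq (0.44 ± 0.10), a small GTPase of glucose transport, against 1.39% lower and 0.739% higher over all genes. Akt2 read 446, 435 and 447 in controls and 302, 288 and 251 in knockouts. The groups did not overlap, but the call ended without knockout 3 (adjusted p = 0.0638); Gys2 was lost without control 1 or 3 or knockout 3 and Rhoq without control 1 or 2 or knockout 3 (adjusted p up to 0.0862 and 0.0833). Genes of mitochondrial oxidation had few calls. None of 43 respiratory chain and citrate cycle genes was called, with 3 lower and 0 higher at an unadjusted p under 0.05 and a median of -0.04, and of 30 fatty acid oxidation genes only Pex11a, a peroxisomal membrane protein, was called (-0.46 ± 0.09). Among 24 branched chain amino acid genes the 1 called was Hsd17b10 (-0.42 ± 0.10), lost without control 1, 2 or 3 or knockout 1 or 3 (adjusted p up to 0.199). The 24 brown and beige fat genes had no call, with 3 higher and 3 lower at an unadjusted p under 0.05, and Ucp1 was at -0.10 ± 0.38. Some genes of peroxisomal proteins, chosen after their values were seen and not a fixed list, also fell: Abcd2, a fatty acid transporter of the peroxisome, by 1.06 ± 0.16, Pex16 by 0.78 ± 0.11, Pxmp2 by 0.78 ± 0.13 and Pex3 by 0.37 ± 0.09. Abcd2 read 1038, 1244 and 867 in controls and 574, 476 and 426 in knockouts (adjusted p = 0.000463). The Pex3 call ended without control 2 or 3 or knockout 1, 2 or 3 (adjusted p up to 0.164). Gys2, Akt2, Rhoq, Hsd17b10 and Pex3 lost their calls without the 2 arrays that stood apart (adjusted p = 0.0944 to 0.240). Gys2, Rhoq, Hsd17b10 and Pex3 lost their calls with the 6 compared arrays alone (adjusted p = 0.103 to 0.202).

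**Figure D4:**
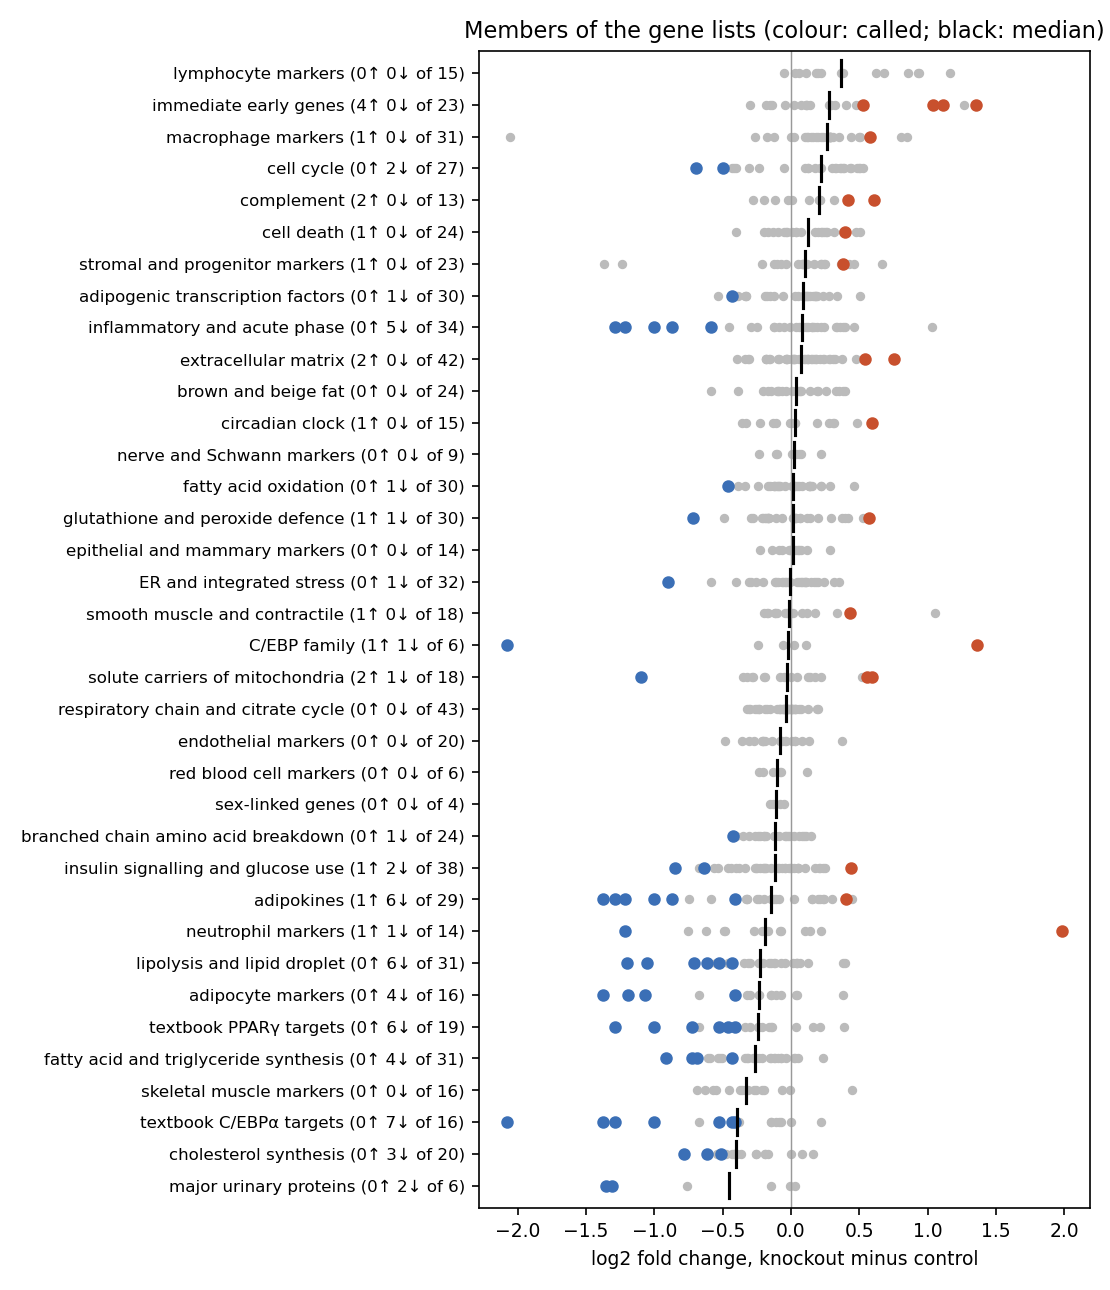
Each row is a gene list and each point a tested member at its log2 change, knockout minus control; blue and red points were called lower and higher, grey points were not called, black ticks are medians and brackets give the numbers called. Medians run from -0.45 for the major urinary proteins to 0.37 for the lymphocyte markers, and blue points gather in the C/EBPα target, PPARγ target, adipokine, lipolysis and synthesis lists.

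Other lists had few calls each, to be read beside the 0.739% of all genes called higher and the 1.39% called lower. Solute carriers of mitochondria included Slc25a25, an ATP-magnesium/phosphate carrier, which fell from 259, 324 and 214 to 121, 101 and 123 (-1.10 ± 0.19, adjusted p = 0.00262), and Slc25a33 and Slc25a30, which rose by 0.56 ± 0.12 and 0.60 ± 0.14; Slc25a33 was lost without control 1 or 2 or knockout 1 or 3 and Slc25a30 without control 1 or 3 or knockout 1 or 3 (adjusted p up to 0.0871 and 0.190). Gstz1, a glutathione transferase of tyrosine breakdown, fell from 11198, 12754 and 10698 to 6570.3, 8050.4 and 6492 (-0.72 ± 0.11), and Sod3, the extracellular superoxide dismutase, rose by 0.57 ± 0.10. Phgdh, the first enzyme of serine synthesis, was the only called gene of 32 for ER and integrated stress (-0.90 ± 0.20; lost without control 1 or 2 or knockout 1 or 3, adjusted p up to 0.120). Thbs2 and Mmp14, a matricellular protein and a membrane matrix protease, were the called members of 42 extracellular matrix genes and rose by 0.76 ± 0.12 and 0.54 ± 0.14; Mmp14 was lost without control 1 or 3 or knockout 1 or 3 (adjusted p up to 0.229). C4b and C5ar1, the 2 called of 13 complement genes, rose by 0.41 ± 0.11 and 0.61 ± 0.15. Each was lost without control replicate 1 or 3 or knockout replicate 1, 2 or 3 (adjusted p up to 0.265 and 0.191). C4b has a near-identical paralog, C4a. Of 27 cell cycle genes Ccnd2 and Cdkn2c fell by 0.70 ± 0.10 and 0.50 ± 0.11, and none was called higher. Cdkn2c was lost without control 1 or 2 or knockout 1 or 3 (adjusted p up to 0.0980). The list leaned the other way, with a median of 0.22 and 19 members with a positive change, against 51.3% of all genes. At an unadjusted p under 0.05, 9 members were higher and 5 lower, against 6.39% and 6.57% of all genes. Outside the list, Cdc6 (0.61 ± 0.11), Cdkn3 (0.61 ± 0.13), Fen1 (0.37 ± 0.09) and Rpa1 (0.34 ± 0.09), cell cycle and replication genes, were called higher. They were chosen after their values were seen and were not followed with arrays left out, and other called genes were not sorted by this role. Fas of the cell death list, Ciart of the clock list and Mylk of the contractile list each had 1 call, at 0.40, 0.59 and 0.43, and all 3 calls were lost in at least 5 of the 6 runs without 1 array. Slc25a33, Slc25a30, Phgdh, Mmp14, C4b, C5ar1, Fas and Ciart lost their calls without the 2 arrays that stood apart (adjusted p = 0.0560 to 0.389). Slc25a33, Slc25a30, Gstz1, Sod3, Phgdh, Thbs2, Mmp14, C4b, C5ar1, Cdkn2c, Fas, Ciart and Mylk lost their calls with the 6 compared arrays alone (adjusted p = 0.0607 to 0.234).

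Markers of the tissue's cell types had few calls. Of 16 adipocyte markers 4 fell (Retn, Tshr, Acvr1c and Adipoq), against 1.39% of all genes, and none rose, and the summed signal of the list overlapped between groups, at 79807 to 88558 in controls and 75693 to 83092 in knockouts. The count was 2 without knockout replicate 3. By limma at an unadjusted p under 0.05, 8 adipocyte markers were lower and 1 higher, against 6.57% and 6.39% of all genes. Groups were separate on the lower side for 9 and on the higher side for 1, against 9.24% and 8.7% of all genes. A negative change was found for 13 of the 16, against 48.7% of all genes, and the median was -0.24. Cidec, Plin1 and Pnpla2, defining genes of the fat cell, were above background on all 6 arrays. Stromal and progenitor markers summed to 18951 to 22540 in controls and 24170 to 25922 in knockouts, without overlap. Only Sfrp1, a secreted Wnt inhibitor, was called of 23, against 0.739% of all genes called higher. Sfrp1 rose by 0.38 ± 0.10 and was lost without control 1, 2 or 3 or knockout 2 or 3 (adjusted p up to 0.228). Macrophage markers summed to 48169 to 62961 and 54985 to 72192, overlapping, and 27 of 31 had a positive change, against 51.3% of all genes. At an unadjusted p under 0.05, 12 of the 31 macrophage markers and 6 of the 23 stromal markers were higher, against 6.39% of all genes, and 0 and 1 were lower. Cd14, the lipopolysaccharide co-receptor, was the 1 macrophage marker called, against 0.739% of all genes called higher. It rose from 473, 437 and 357 to 632, 653 and 621 (0.58 ± 0.11, adjusted p = 0.00363). The macrophage count was 3 without knockout replicate 2 and 0 without the 2 arrays that stood apart. Adgre1, which encodes the macrophage antigen F4/80, was at 0.22 ± 0.20. The part of stromal and macrophage cell numbers in the increases was not tested. Endothelial (20), lymphocyte (15), skeletal muscle (16), nerve (9) and red blood cell (6) lists had no called gene by limma. At an unadjusted p under 0.05 they held 5, 1, 0, 1 and 0 genes. The 5 endothelial genes were 1 higher and 4 lower, against 6.39% and 6.57% of all genes. In that list 5 of 20 members had separate groups on the lower side, against 9.24% of all genes, and the median was -0.08. The lists are not complete. Outside the endothelial list, the endothelial genes Esm1 (-1.08 ± 0.23), Mcam (-0.83 ± 0.14) and Nos3 (-0.63 ± 0.12) were called lower. They were chosen after their values were seen and were not followed with arrays left out. The other called genes were not sorted by cell type. Sfrp1 and Cd14 lost their calls without the 2 arrays that stood apart (adjusted p = 0.0793 to 0.385) and with the 6 compared arrays alone (adjusted p = 0.0967 to 0.230).

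To set the changed genes beside the sequence that C/EBP proteins bind, promoters were searched for TTGCNNAA, a loose form of the palindromic C/EBP site, on both strands, over 250 bases before to 50 after each RefSeq start (GRCm38.p6). Of the 217 genes called lower, 162 had a promoter in the table, with 215 promoters, and 10.7% of these held a match. Among genes called higher, 86 of 115 had one, with 108 promoters, of which 10.2% held a match. The share was 10.8% over all 32851 promoters and 9.33% over the 15640 promoters of genes tested. The strict palindrome TTGCGCAA was in 0.183% of all promoters, in 0.256% of those of genes tested and in 1 of the lower genes' 215. The promoters of Vnn3, Lcn2 and Pparg are shown as examples of lower genes with a match, since they stand for an enzyme, a secreted protein and the partner factor PPARγ. Capitals mark TTGCNNAA on either strand, and each sequence reads 5′ to 3′ along its gene's strand. They lie at chr10:23851212-23851511 on the + strand for Vnn3, chr2:32387690-32387989 on the - strand for Lcn2 and chr6:115421816-115422115 on the + strand for Pparg. The Pparg window is the most downstream of 3 in the table and holds 2 matches, and the other 2 windows hold none.

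Vnn3: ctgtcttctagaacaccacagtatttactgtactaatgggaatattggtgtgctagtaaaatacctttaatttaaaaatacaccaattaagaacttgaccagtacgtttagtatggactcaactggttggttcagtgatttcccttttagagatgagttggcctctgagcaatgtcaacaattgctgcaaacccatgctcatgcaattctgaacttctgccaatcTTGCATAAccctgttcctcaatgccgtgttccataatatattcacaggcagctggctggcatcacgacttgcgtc

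Lcn2: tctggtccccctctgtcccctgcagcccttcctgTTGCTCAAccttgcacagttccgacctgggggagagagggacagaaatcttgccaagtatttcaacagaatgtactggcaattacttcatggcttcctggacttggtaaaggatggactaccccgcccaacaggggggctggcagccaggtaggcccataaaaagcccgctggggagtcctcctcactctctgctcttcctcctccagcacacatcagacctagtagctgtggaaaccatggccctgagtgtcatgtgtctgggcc

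Pparg: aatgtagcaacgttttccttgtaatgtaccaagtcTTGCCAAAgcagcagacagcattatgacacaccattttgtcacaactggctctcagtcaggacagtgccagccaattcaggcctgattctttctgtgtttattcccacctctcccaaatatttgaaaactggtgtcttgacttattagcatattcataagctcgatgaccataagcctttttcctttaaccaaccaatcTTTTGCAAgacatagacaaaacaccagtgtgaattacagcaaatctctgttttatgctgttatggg

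A match in these windows is a description of the letters and not evidence of binding, and sites further from the start were not searched.

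The same knockout was compared in the other diet and time, each against its own controls, which are not shared between sets. On chow 161 genes were called (1.03%), 79 higher (0.507%) and 82 lower (0.527%). Of the 332 genes, 30 were called in the same direction on chow, 9.04% of the high fat diet calls and 18.6% of the chow calls, and 289 had the same sign. The lower genes had a median of -0.20 on chow and the higher genes 0.23. Because the genes were chosen by their calls on the high fat diet, these medians cannot show a weaker effect on chow. On chow Retn changed by -0.93 ± 0.17 and Cyp2f2 rose by 1.34 ± 0.28, while Hcar2 and Acvr1c were at -0.09 ± 0.14 and -0.11 ± 0.14 there. When the difference between the diets was tested, no gene passed by limma, with 1773 genes (11.4%) at an unadjusted p under 0.05, and no single gene is shown by this fit to respond differently on the 2 diets. That count was 21 with a trended, robust prior, 17 with an offset of 50, 16 without knockout replicate 2, 5 without background correction and 3 with means of probes. Nudt6 and the genes Mup2 and Mup6 had larger decreases on chow, at -1.49 ± 0.18, -1.80 ± 0.27 and -1.71 ± 0.21, against -0.88 ± 0.18, -1.36 ± 0.27 and -1.31 ± 0.21 on the high fat diet; none of these differences was called, Nudt6 was chosen after its values were seen, and its high fat diet call ended without knockout 3 (adjusted p = 0.0550). Nudt6 lost its call without the 2 arrays that stood apart (adjusted p = 0.149).

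After 1 month on the high fat diet 2570 genes were called (16.5%), 1353 higher (8.69%) and 1217 lower (7.82%). Of the 332 genes, 290 were called in the same direction then, 87.3% of the 3 day calls and 11.3% of the 1 month calls. One was called in the opposite direction: Net1, which was 0.73 ± 0.18 at 3 days and -0.54 ± 0.18 at 1 month, and whose 3 day call ended without control 2 or 3 or knockout 2 or 3 (adjusted p up to 0.214). Genes called lower at 3 days had a median of -0.94 at 1 month, and 174 of 217 had the larger change at 1 month; the higher genes had a median of 0.58, and 62 of 115 were larger. In all 3 C/EBPα comparisons 29 genes were called in 1 direction, and 40 were called at 3 days on the high fat diet alone among the 3. The mice were 14 weeks old at 1 month and 10 weeks at 3 days, so time and age cannot be told apart. Net1 lost its call without the 2 arrays that stood apart (adjusted p = 0.402) and with the 6 compared arrays alone (adjusted p = 0.259).

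**Figure D5:**
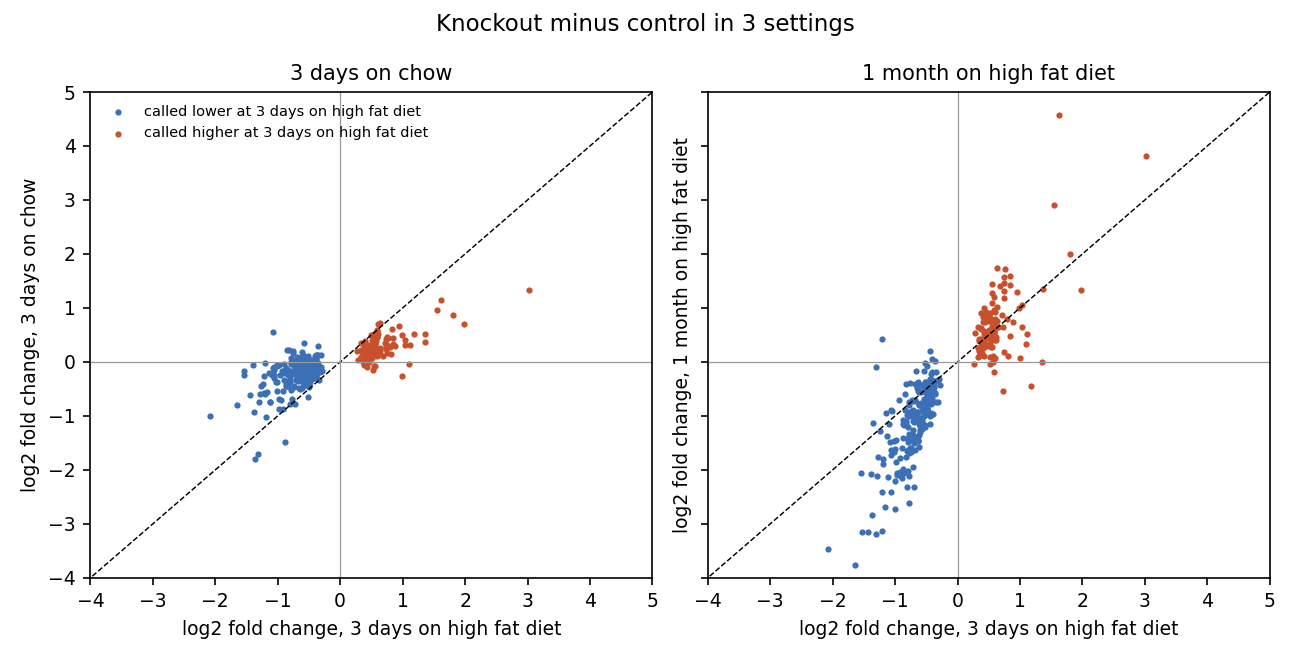
The 332 genes called at 3 days on the high fat diet, with that log2 change on the horizontal axes and the change of the same gene after 3 days on chow (left) or after 1 month on the high fat diet (right) on the vertical axes; the dashed line marks equal change. On chow most points lie nearer 0 than the line, with medians of -0.20 and 0.23, and at 1 month most of the lower genes fall below it, with a median of -0.94. The genes were chosen by their calls on the horizontal axis, so smaller changes on chow do not measure a difference between the diets.

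The difference between 1 month and 3 days passed the test for 243 genes (1.56%), 103 positive (0.661%) and 140 negative (0.899%). With control replicate 1 left out the count was 141, with knockout replicate 2 left out 136, and with the arrays of these groups alone 134. Of the 243, 61 were among the 332, and 57 of the 61 had the larger change at 1 month. Because the 61 had to pass both tests, that count is partly set by the choice of genes. Slc13a4 went from -1.65 ± 0.22 to -3.76 ± 0.22, Retn to -2.83 ± 0.17 and Orm1 to -2.73 ± 0.13, each a further decrease that was itself called (adjusted p of the difference = 0.000875, 0.00189 and 2.88e-05). Angpt4 and Itih4 rose further, to 4.57 ± 0.25 and 2.90 ± 0.17. Lcn2 and Mup6 went the other way: Lcn2 was lower at 3 days and at 0.43 ± 0.22 at 1 month (difference 1.65 ± 0.31, adjusted p = 0.00730), and Mup6 was at -0.09 ± 0.21 at 1 month. Another 182 genes of the 243 were not called at 3 days. The largest of these were Serpina1b and Serpina1d, paralogous protease inhibitor genes whose probes may share target, at -0.13 ± 0.66 and 0.01 ± 0.59 at 3 days and -4.88 ± 0.66 and -4.22 ± 0.59 at 1 month, and Crtac1, a matrix protein, at 0.01 ± 0.23 and -3.00 ± 0.23. Hsd11b2, which inactivates glucocorticoids, was level at 3 days (0.10 ± 0.12) and higher at 1 month (2.10 ± 0.12), while Hsd11b1, which activates them and was chosen after its values were seen, was already lower at 3 days, from 7906, 7326 and 7103 to 4840.1, 5606 and 5592 (-0.48 ± 0.10, adjusted p = 0.0140; lost without control 1 or knockout 1, up to 0.0960). Hsd11b1 lost its call without the 2 arrays that stood apart (adjusted p = 0.0650) and with the 6 compared arrays alone (adjusted p = 0.104).

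The 3 arrays labelled Adn-PPARγ-/- and their 3 controls, on doxycycline chow for 3 days, share no array with the C/EBPα comparisons. There 1299 genes were called (8.34%), 643 higher (4.13%) and 656 lower (4.21%). Of the 332 genes called after C/EBPα loss on the high fat diet, 155 were called in the same direction, 46.7% of the 332 and 11.9% of the 1299, and 7 in the opposite direction. Diet and genotype both differ between these sets, and the difference between their effects was not tested.

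Genes lower in both included Slc13a4 (-1.34 ± 0.22 in the PPARγ arrays), Retn (-1.23 ± 0.17), Chst1 (-0.96 ± 0.16) and Dgat1 (-1.38 ± 0.12), and Cebpa itself (-1.38 ± 0.14). Cyp2f2 (2.36 ± 0.28), Prtn3 (2.81 ± 0.21), Angpt4 (2.54 ± 0.25) and Comp (1.93 ± 0.23) were higher in both. Several of the largest C/EBPα decreases had no call there: Hp was at -0.34 ± 0.19, Nnmt at -0.06 ± 0.20, Orm1 at -0.03 ± 0.13 and Cdo1 at -0.13 ± 0.12. Cebpg, higher after C/EBPα loss, was at -0.45 ± 0.14 and not called (limma adjusted p = 0.0589). Lcn2, Orm2, Pparg, Sod3, Dhrs4, Msrb1 and Pla2g2e were the 7 called in opposite directions, Lcn2 at 2.12 ± 0.22 and Orm2 at 0.80 ± 0.14 in the PPARγ arrays; the last 3 were chosen after their values were seen. The main Pparg probe was 1.10 ± 0.11 higher in the arrays labelled Adn-PPARγ-/-, and whether it lies within the deleted part is not known here.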

How the data were processed

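Per the labels' protocols, RNA was purified with Trizol and RNeasy columns, DNase treated, and biotinylated as cRNA for Illumina arrays. The deposited values are linear probe intensities that, from the values, the authors quantile-normalized within each set of 6 arrays without subtracting background; the software is not given in the sources used here. The other deposited table, not yet normalized, has 96 columns that could not be matched to samples and was not used. Depth has no meaning for arrays, whose number limits the precision.

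Background was estimated per set (for these 6 arrays 103, SD 3.41), removed with limma's normexp signal, an offset of 16 added and log2 taken. Probes above background (5% false positives) in at least 3 of 24 arrays were kept, 33127 of 45281, with the brightest per gene, named through the platform annotation and RefSeq (GRCm38.p6), for 15571 genes. Limma 3.58.1 in R 4.3.3 fitted the means of 8 groups over 24 arrays, two-sided, with Benjamini-Hochberg adjustment. The fit was tested on simulated data.

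Named genes were Cebpa, Pparg, the 15 largest called changes per direction with separate groups, up to 5 members per list with the smallest adjusted p, and the 5 largest differences per direction between settings; others are said to be chosen after their values were seen. The comparison, the members and the lists were chosen with earlier results of these data known. Replicate numbers did not pair the samples. Alternatives covered the background correction, offset, filters, probes per gene, model and each array left out.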

Additional observations from a re-analysis of the deposited data

Results flagged for a closer look

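For 37 named genes the knockout effect at 1 month differed from that at 3 days on the high fat diet by limma's test of the difference (adjusted p under 0.05). Over all genes the share was 1.56%. The 5 largest differences in each direction were named because they passed this same test, so part of the 37 was fixed by the naming. The values below are the log2 effect at 1 month minus that at 3 days, and no cause was tested; age and time go together, and each set has its own controls.

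Most were genes already lower at 3 days and lower still at 1 month. The differences were -1.39 for Cebpa, -2.12 for Slc13a4, -1.71 for Vnn3, -1.61 for Mc2r, -1.88 for Fam110c and -1.20 for Wfdc12 (adjusted p up to 0.0204). Among secreted and receptor genes they were -1.46 for Retn, -1.72 for Orm1, -1.12 for Orm2, -1.83 for Ffar2 and -0.87 for Ffar4. Among signalling genes they were -1.50 for Gnai1, -0.84 for Akt2, -0.68 for Eif4ebp1 and -0.73 for Kctd15. For lipid droplet, peroxisomal and amino acid genes they were -0.71 for Bscl2, -1.34 for Abcd2, -0.90 for Pex16, -1.34 for Pxmp2, -1.08 for Cdo1, -1.23 for Gstz1 and -1.19 for Phgdh, and -0.60 for Tmem120a.

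Increases at 3 days that were larger at 1 month were those of Angpt4 (2.95), Itih4 (1.35) and Thbs2 (0.97). Lcn2 (1.65) and Mup6 (1.23) had a decrease at 3 days and none called at 1 month, and Net1 (-1.27) was higher at 3 days and lower at 1 month. The remaining genes were not called at 3 days. Sfrp5, a secreted Wnt antagonist of adipocytes, differed by -2.61, Igfals, a carrier subunit of insulin-like growth factors, by -2.27, Crtac1 by -3.00, Serpina1b by -4.76 and Serpina1d by -4.24. Differences were positive for Hsd11b2 (2.00), Mmd2 (2.24) and Retnlg (2.14), a resistin-like gene of myeloid cells.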

How the results depend on the processing

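Cebpa stayed called lower under all 18 alternatives, between -2.17 and -1.57 on the log2 scale, and no named gene reversed. Of 103 named genes with a call, 65 lost it with the compared groups' arrays alone, 55 without the 2 arrays that stood apart, 45 at an adjusted p under 0.01, 32 with the replicate block, 17 to 44 when 1 array was left out, 14 with means of probes and 0 to 5 under each of the others. Of the 332 genes called (115 higher, 217 lower), limma called 76 (12 and 64) with the compared groups' arrays alone, 588 (224 and 364) with array weights, 146 (39 and 107) at an adjusted p under 0.01, and 111 (34 and 77) without control replicate 3 and knockout replicate 3, an alternative chosen after seeing the data. Leaving out 1 array gave 164 to 433 called genes, 51 to 177 higher and 104 to 256 lower. The replicate block gave 209 called genes, 64 of them higher; deviations of same-numbered arrays correlated at -0.187, 0.0116 and -0.251, so the arrays share only a number. No correction of background, an offset of 50, both other filters, means of probes, a trended robust prior and weights per set gave 289 to 442. The difference from chow, 0 genes, became 5 without background correction, 17 with an offset of 50, 3 with means of probes, 21 with the trended robust prior, and 0 to 16 when 1 array was left out. The difference from 1 month, 243 genes, became 134 with the compared groups alone, 151 with the replicate block, 89 at an adjusted p under 0.01, and 136 to 263 when 1 array was left out. The causes of these changes were not tested beyond the fewer samples or stricter threshold that some settings have by construction. Dim probes are the least certain: Comp, Stat4, Cd36 and Fabp4 lie near background, as do Angpt4 in the controls and Retn in the knockouts. Mup, Orm, C4 and Serpina1 probes may read paralogs.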
